A study of Mus musculus with 4 samples.

Results

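The genes described here are 10 sensors and transducers of nucleic acids in mouse cells, measured by RNA-seq in 2 colorectal cancer lines after knockdown of Aurora-A. They were chosen by name, with earlier results of these data known, and are 10 of the 51905 genes in the deposited files. The members on the RNA side are Ddx58 (encoding RIG-I), Ifih1 (MDA5), Dhx58 (LGP2), Mavs, Tlr3 and Eif2ak2 (PKR). Those on the DNA and Z-form side are Cgas (listed in the files as Mb21d1), Sting1 (listed as Tmem173) and Zbp1. Irf3 is a transcription factor used by both sides and was kept apart. All 10 passed the filter on low counts, a mean of at least 10 counts over the 2 libraries of each line, which left 11928 genes.

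CT26 and MC38 are mouse colorectal adenocarcinoma lines, labelled WT for genotype. A lentiviral short hairpin RNA targeted either GFP, as the control (shGFP), or the mouse gene for Aurora-A (shmaurka-1), and cells were harvested for RNA 48 h after seeding. All 4 groups therefore carry an integrated lentivirus and a hairpin and, by the study's general infection protocol, passed through puromycin selection, and 1 hairpin against Aurora-A was sequenced. The cells are infected pools grown in culture, CT26 in RPMI-1640 and MC38 in high-glucose DMEM, so that line and medium cannot be told apart. There was 1 library for each line and hairpin, and a difference within a line has no replicate behind it. Fold changes within a line are ratios of counts scaled by TMM (a factor for each library that balances most genes), with 1 count added. The 95% intervals beside them cover counting error in a pair of libraries only. The lines are the only replication: an effect of the knockdown shared by both was sought with the quasi-likelihood test of edgeR, line being the block, which had 1 residual degree of freedom and took its spread from all genes.

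The libraries held 22207768 to 23752269 fragments in genes. Aurka, the targeted gene, had 5724 fragments in the CT26 control and 1093 in the CT26 knockdown, and 2300 and 413 in the corresponding MC38 libraries, log2 fold changes of -2.27 and -2.45. The labels call CT26 a fibroblast and MC38 an epithelial cell. Of the defining epithelial markers, Epcam had 0 or 1 fragment in every library and Cdh1, named after its values were seen, had at most 6, and the summed FPKM of 9 epithelial markers was 34.6 and 38.3 in the CT26 libraries against 1.25 and 0.987 in the MC38 libraries. Krt18, a keratin named after its values were seen, made up 33.7 and 37.4 of the CT26 sums. Col1a1, a collagen of fibroblasts, had 2127 to 2920 fragments in every library, and Ptprc, which marks leukocytes, had at most 3. The summed FPKM of 9 fibroblast markers ran from 295 to 547 and that of 10 leukocyte markers from 4.96 to 9.37. Of the 13 genes of these lists that were tested, 0 passed the edgeR test for the knockdown in either direction (adjusted p under 0.05) and 0 passed in DESeq2. At an unadjusted p under 0.05 in edgeR, 1 of the 8 fibroblast markers tested was higher and 3 were lower, where 6.56% of all genes were higher and 5.76% lower, and no epithelial or leukocyte marker was either. Their part in the results was not tested.

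Cells recognise foreign or misplaced nucleic acids through separate sets of receptors. RIG-I and MDA5 bind double-stranded RNA in the cytosol and signal through MAVS on the mitochondrion to the kinase TBK1 and to IRF3, which turns on interferon genes. LGP2 lacks the signalling domain of its relatives and modulates them. TLR3 reads double-stranded RNA inside endosomes rather than in the cytosol, and PKR binds the same kind of RNA and phosphorylates eIF2alpha to slow translation. On the DNA side, cGAS binds double-stranded DNA and makes the messenger cGAMP, which activates STING and, through it, TBK1 and IRF3. ZBP1 binds nucleic acids in the left-handed Z form and can engage RIPK3 and cell death. Several of these genes are themselves induced by interferon, so their transcripts rise during a response.

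After knockdown, the transcript of the DNA-side adaptor Sting1 fell in both lines, while Zbp1 and Ddx58 rose. These were 3 of the 10 genes, 2 called higher and 1 called lower by the edgeR test common to both lines (Benjamini-Hochberg adjusted p under 0.05), where 1.67% of all genes tested were called higher and 1.12% lower. The remaining 7 did not pass. At an unadjusted p under 0.05 there were 6 in edgeR (these 3, Ifih1, Tlr3 and Eif2ak2), where 12.3% of all genes were. DESeq2 called 0 of the 10, with 5 at an unadjusted p under 0.05, where 4.17% of all genes were. In bulk RNA, fewer cells with a transcript and less of it in each cell cannot be told apart. The direction did not follow the RNA and DNA sides as wholes, since Zbp1 and Sting1 moved oppositely and Cgas had log2 fold changes of -0.09 and 0.03. The median log2 fold change of the 6 RNA sensors was 0.18 in CT26 and 0.21 in MC38, and that of the 3 DNA and Z-form genes was -0.09 and 0.03, beside -0.0055 and -0.0007 over all genes tested. With Zbp1 counted among the RNA sensors instead, an arrangement chosen after the values were seen, the medians were 0.22 and 0.25 for RNA. For DNA they were -0.35 and -0.34, midway between the values of Cgas and Sting1, the only genes left there.

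**Figure D1:**
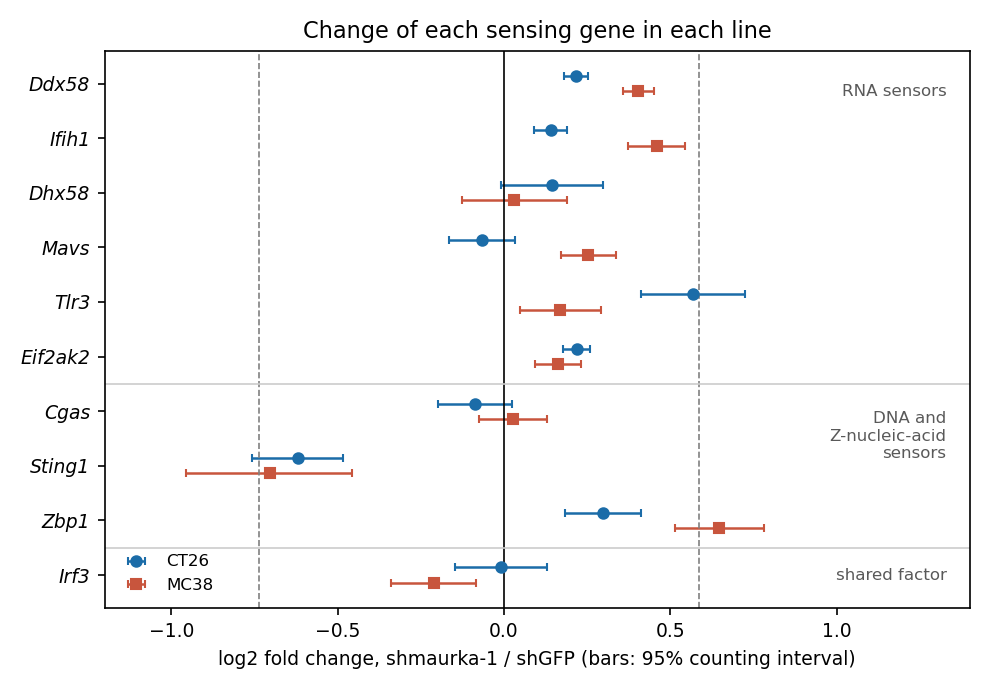
Log2 fold change of each sensing gene, shmaurka-1 over shGFP, in CT26 (circles) and MC38 (squares), from 1 library for each group; bars are 95% counting intervals and dashed lines mark 1.5-fold and 0.6-fold. Sting1 lies at -0.62 and -0.70, Zbp1 at 0.30 and 0.65, and no gene of the 10 is past a threshold in both lines.

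By the size of the change, few of these genes stood out. In CT26, 0 of 10 were above 1.5-fold, where 3.2% of all genes tested were, and 0 were below 0.6-fold, where 2.58% were. In MC38, 1 was above 1.5-fold (Zbp1; 2.47% of all genes) and 0 were below 0.6-fold (1.03%). In the deposited FPKM it was Tlr3 in CT26 that passed 1.5-fold, with a ratio of 1.62, and Zbp1 in MC38 did not, with 1.485. The counting interval lay above no change for 5 genes in CT26 (Ddx58, Ifih1, Tlr3, Zbp1 and Eif2ak2; 22.1% of all genes) and below it for 1 (Sting1; 21.1%). In MC38 it lay above for 6, the same 5 and Mavs (22.7% of all genes), and below for 2, Irf3 and Sting1 (22.3%). In both lines together, 6 genes were higher in the knockdown library (Ddx58, Ifih1, Dhx58, Tlr3, Zbp1 and Eif2ak2), where 28% of all genes were. Irf3 and Sting1, 2 of 10, were lower in both, where 28.9% of all genes were. Irf3 was at -0.01 in CT26, and the deposited FPKM turned its direction there, which leaves Sting1 alone.

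Among the cytosolic RNA receptors, Ddx58 was the most abundant. RIG-I, its product, recognises the triphosphate end of short double-stranded RNA. Ddx58 (chromosome 4, 40203773 to 40239828, GRCm38) was read 11793 times in the CT26 shGFP library, 12603 times in CT26 shmaurka-1, 6232 times in MC38 shGFP and 8081 times in MC38 shmaurka-1, in fragments. After scaling, these were 552.6, 642.0, 247.4 and 327.4 CPM (counts relative to the scaled size of the library). The knockdown library was the higher of the pair in each line, and both CT26 libraries lay above both MC38 libraries. The fold changes were 1.16 in CT26 (log2 0.22, 95% counting interval 0.18 to 0.25) and 1.32 in MC38 (log2 0.40, 0.36 to 0.45). The common edgeR estimate was 0.31 (SE 0.0915, adjusted p = 0.0321), rank 266 of 11928 by p. Of the 3 calls, this one was lost most easily: the adjusted p was 0.0600 with total-count scaling, 0.127 where at least 50 counts were required and 0.645 in DESeq2.

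Ifih1 encodes MDA5, the receptor of long double-stranded RNA. The gene (chromosome 2, 62595798 to 62646255) had 6499, 6587, 1883 and 2536 fragments, in the order CT26 shGFP, CT26 shmaurka-1, MC38 shGFP, MC38 shmaurka-1, which is kept for the values of the other genes. Scaled, these were 304.6, 335.6, 74.8 and 102.8 CPM. It was higher in the knockdown library of both lines, 1.10-fold in CT26 (log2 0.14, 0.09 to 0.19) and 1.37-fold in MC38 (log2 0.46, 0.37 to 0.55). The common change of 0.29 (SE 0.0982) missed the threshold in edgeR (adjusted p = 0.0764).

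Dhx58, for LGP2, had 692, 703, 659 and 660 fragments, and its log2 fold changes of 0.14 (-0.01 to 0.30) and 0.03 (-0.13 to 0.19) both had intervals that include no change (edgeR adjusted p = 0.889). In the files its locus (chromosome 11, 100574904 to 100704271) is shared with 6 other gene identifiers, 4 of them with counts. Among the 6 is the antisense gene Dhx58os. The libraries were made with a strand-specific kit. Whether counting used strand is not given in the sources used here, so the value of Dhx58 is uncertain. In the deposited FPKM its CT26 log2 fold change was 0.33.

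Mavs, the adaptor that RIG-I and MDA5 share, had 1800, 1582, 2172 and 2538 fragments (chromosome 2, 131234063 to 131248025). The lines had opposite signs, although the CT26 interval includes no change. In CT26 the log2 fold change was -0.07 (-0.16 to 0.03), and in MC38 it was 0.25 (0.17 to 0.34). The common test gave 0.10 (edgeR adjusted p = 0.829).

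Tlr3 (chromosome 8, 45395665 to 45411080) had 579, 790, 1040 and 1146 fragments. The CT26 control library was the lowest of the 4 at 27.1 CPM, against 40.2 in CT26 shmaurka-1 and 41.3 and 46.4 in the MC38 libraries. The change was 1.48-fold in CT26 (log2 0.57, 0.41 to 0.73), the largest of the 10 genes in that line among those higher after knockdown, and 1.12-fold in MC38 (log2 0.17, 0.05 to 0.29). The common change was 0.37 (SE 0.127) and missed the threshold in edgeR (adjusted p = 0.0996).

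Eif2ak2, for PKR, had 9466, 10132, 3241 and 3551 fragments (chromosome 17, 78852564 to 78906992, a locus it shares in the files with 3 other identifiers, 2 of them with counts, so its value is uncertain). In counts it was higher in both knockdown libraries, with log2 fold changes of 0.22 (0.18 to 0.26) and 0.16 (0.09 to 0.23). The common estimate was 0.19 (SE 0.0943, edgeR adjusted p = 0.379). In the deposited FPKM the MC38 value was 0.0095, so the MC38 difference is in the counts and not in the FPKM.

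Promoter sequence was looked at because interferon-stimulated genes often carry a response element near their start. RefSeq promoter windows of GRCm38.p6, 250 bases before to 50 after the start, matched 7 of the 10 genes: Ddx58, Ifih1, Mavs, Tlr3, Irf3, Eif2ak2 and Cgas. Dhx58, Zbp1 and Sting1 had no entry in the set of windows used here, which was searched by gene symbol. The interferon response motif, GAAA followed by 2 bases of any kind and GAAA again, searched on both strands, was found in 3 of the 7, Ddx58, Ifih1 and Eif2ak2, and in 3.44% of 32851 windows of the same length. All 3 matches also fit a stricter form with a following C or T, found in 1.35% of the windows. The STAT motif TTCNNNGAA was found in 1 of the 7, Eif2ak2, and in 8.30% of the windows. The matches lie within 50 bases after the start, counted from 1 at the first transcribed base: bases 3 to 12 in Ddx58, 33 to 42 in Ifih1 and 19 to 28 in Eif2ak2. They are printed from the gene's own strand, 5′ to 3′, with the motif in capitals; the Ddx58 match is the reverse complement of the motif. All 3 genes are on the minus strand, and the printed bases are chr4:40239804-40239833, chr2:62646206-62646233 and chr17:78882535-78882564.
Ddx58: cctgaggcagTTTCGATTTCctatggccag
Ifih1: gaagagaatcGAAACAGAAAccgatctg
Eif2ak2: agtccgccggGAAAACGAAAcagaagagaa
A match describes these letters only. Ddx58, which passed the edgeR test, and Ifih1 and Eif2ak2, which did not, all hold the motif, while Tlr3 and Mavs do not hold it in this window.

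**Figure D2:**
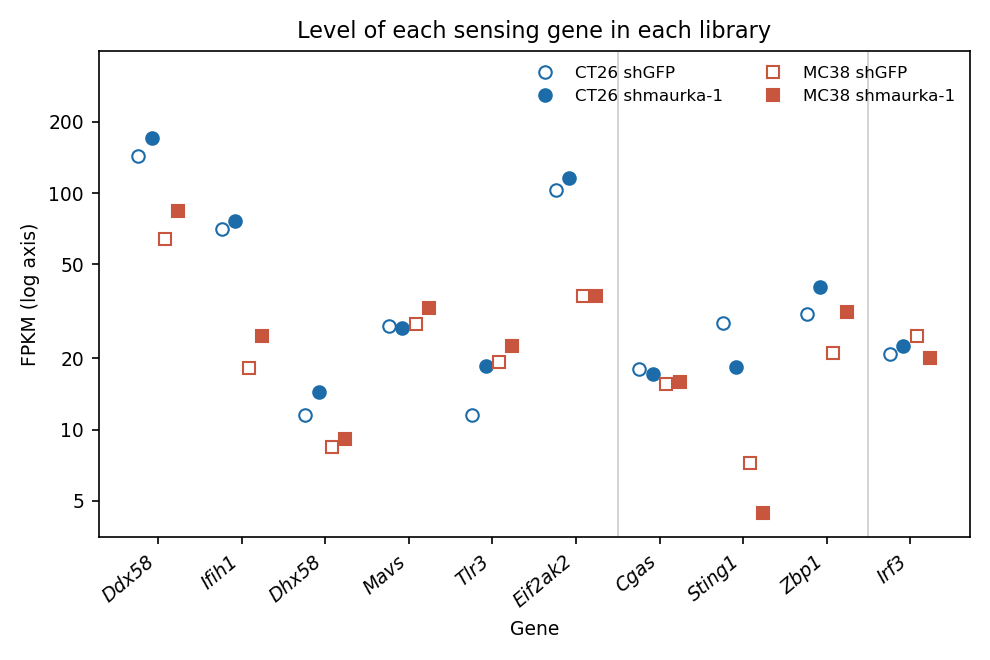
FPKM (fragments relative to the transcript's length and the library's size, log axis) of each sensing gene in the 4 libraries, with open symbols for shGFP and filled symbols for shmaurka-1, and circles for CT26 and squares for MC38. Ddx58 and Eif2ak2 are the highest in every library, and Sting1 in MC38 is the lowest, at 7.21 and 4.45.

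Zbp1 showed the larger of the 2 increases that passed the test. It lies on chromosome 2 (173206612 to 173218923) and had 1182, 1336, 762 and 1169 fragments in the same order, or 55.4, 68.1, 30.3 and 47.4 CPM. The knockdown library was the higher of each pair, and on this scale the MC38 knockdown library was below the CT26 control, an order that turned in FPKM (31.4 and 30.8). The fold changes were 1.23 in CT26 (log2 0.30, 0.18 to 0.41) and 1.56 in MC38 (log2 0.65, 0.51 to 0.78). The common edgeR estimate was 0.47 (SE 0.121, adjusted p = 0.00799), rank 165 of 11928. The adjusted p was 0.0820 where at least 50 counts were required and 0.466 in DESeq2.

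Cgas, the DNA-binding enzyme itself, was close to flat. It had 1417, 1228, 1534 and 1532 fragments (chromosome 9, 78427507 to 78443237), or 66.4, 62.6, 60.9 and 62.1 CPM, so the 4 libraries spanned a narrow range. The log2 fold changes were -0.09 (-0.20 to 0.03) in CT26 and 0.03 (-0.08 to 0.13) in MC38, and both intervals include no change. The common edgeR estimate was -0.03 (SE 0.114, adjusted p = 0.967). The counting intervals leave room for a CT26 log2 change down to -0.20 and an MC38 log2 change up to 0.13.

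Sting1 (chromosome 18, 35733678 to 35740554), the endoplasmic reticulum protein that cGAMP activates, had 1158 fragments in the CT26 control and 693 in the CT26 knockdown. In MC38 it had 356 and 214. In CPM these were 54.3, 35.3, 14.1 and 8.67. The knockdown library was the lower of each pair. The transcript fell by 34.9% in CT26 (log2 -0.62, -0.76 to -0.48) and fell by 38.5% in MC38 (log2 -0.70, -0.96 to -0.46). The common edgeR estimate was -0.65 (SE 0.142, adjusted p = 0.000581), rank 78 of 11928, and limma gave an adjusted p of 0.000820. DESeq2, which called 29 genes in all, put it at an adjusted p of 0.141. Sting1 had the largest change of the 10 genes in each line in the counts. Its fold of 0.651 and 0.615 stayed inside the 0.6 threshold in both lines.

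**Figure D3:**
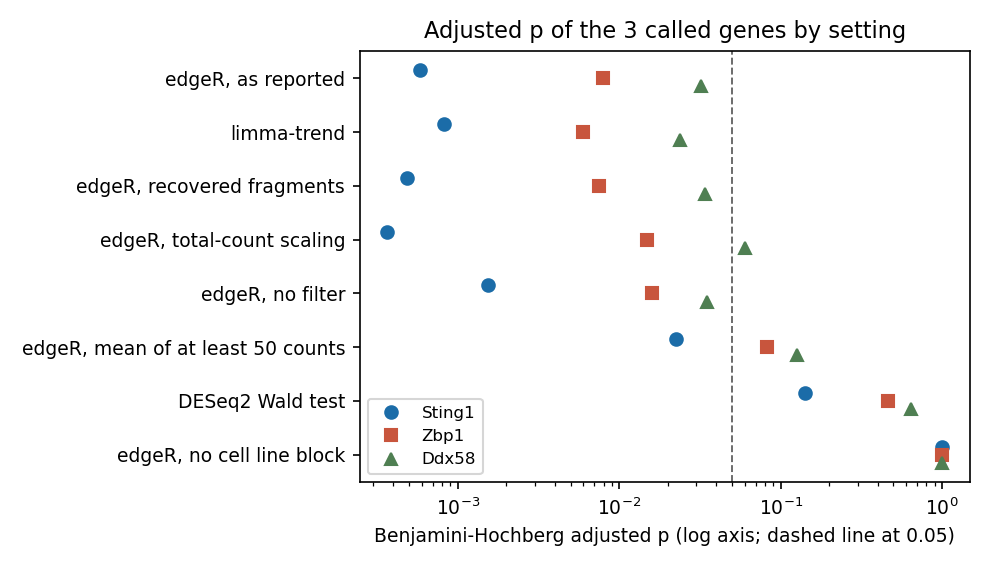
Benjamini-Hochberg adjusted p (log axis) of Sting1, Zbp1 and Ddx58 in the test common to both lines under 8 settings, with the threshold of 0.05 dashed. All 3 are left of the line in edgeR as reported, limma and 2 other edgeR settings, Sting1 and Zbp1 with total-count scaling, Sting1 alone with the filter at 50 counts, and none in DESeq2 or without the block.

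Irf3, the transcription factor that both sides activate by phosphorylation, had 902, 824, 1091 and 923 fragments. Its log2 fold changes were -0.01 (-0.15 to 0.13) in CT26 and -0.21 (-0.34 to -0.08) in MC38, and the common test gave -0.11 (edgeR adjusted p = 0.831). In the files its locus (chromosome 7, 44986900 to 45002848) also holds Bcl2l12 and Gm15545, both with counts, so its value is uncertain. In the deposited FPKM the CT26 log2 fold change was up to 0.12.

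For several genes the counting interval of the difference between the lines excluded 0. The share of all genes for which it did was not determined, so whether these genes differ from others in this is not known. The MC38 change minus the CT26 change was 0.35 for Zbp1 (95% counting interval 0.17 to 0.53), 0.32 for Ifih1 (0.22 to 0.42), 0.32 for Mavs (0.19 to 0.45) and 0.19 for Ddx58 (0.13 to 0.25) on the log2 scale. It was -0.40 for Tlr3 (-0.60 to -0.20) and -0.20 for Irf3 (-0.39 to -0.01). For Sting1 it was -0.08 (-0.37 to 0.20), for Eif2ak2 -0.06 (-0.14 to 0.02), for Dhx58 -0.11 (-0.33 to 0.11) and for Cgas 0.11 (-0.04 to 0.27), intervals that include 0. With 1 library for each group, the spread between cultures does not enter these intervals, and no test of a difference between the lines could be made.

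Levels differed more between the lines than between hairpins for several members. By the line term of the same edgeR fit, 6 of the 10 were higher in CT26 (36.6% of all genes were) and 1 was higher in MC38 (36.7%). In this fit the shGFP and shmaurka-1 libraries of a line stand in for its replicates. The adjusted p values below therefore do not measure the spread between cultures of a line, and line and medium cannot be told apart. Sting1 was 3.94-fold higher in CT26 (adjusted p = 1.64e-41), Ifih1 3.64-fold (5.27e-74), Eif2ak2 3.52-fold (1.03e-75) and Ddx58 2.09-fold (8.97e-30). Zbp1 was 1.62-fold higher in CT26 (edgeR adjusted p = 2.42e-08) and Dhx58 1.29-fold (0.00940), the last at 0.0765 in DESeq2. Tlr3 was higher in MC38 by 0.40 on the log2 scale (edgeR adjusted p = 0.00249). Mavs, Irf3 and Cgas did not pass (edgeR adjusted p of 0.0923, 0.648 and 0.60). Scaling by total counts moved the median difference between the lines over all genes from 0.0047 to 0.32 on the log2 scale. With it, 3 of the members, Tlr3, Mavs and Cgas, were higher in MC38, where 5858 of the 11928 genes tested were. Higher in CT26 were 5 members and 3030 of all genes. The call for Dhx58 was lost (edgeR adjusted p = 0.739), and Irf3 and Cgas changed direction, while the other 5 genes higher in CT26 kept their calls.

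Per transcript length, in FPKM, the order of the genes differed between the lines. In CT26 shGFP it ran from Ddx58 (144) through Eif2ak2 (103), Ifih1 (70.5), Zbp1 (30.8), Sting1 (28.2), Mavs (27.4), Irf3 (20.8) and Cgas (18.0) to Tlr3 and Dhx58 (11.5 each). In MC38 shGFP it ran from Ddx58 (64.2) through Eif2ak2 (36.6), Mavs (27.9), Irf3 (24.9), Zbp1 (21.1), Tlr3 (19.3), Ifih1 (18.2), Cgas (15.5) and Dhx58 (8.48) to Sting1 (7.21). Over the pair of libraries of a line, Sting1 overlapped Mavs and Irf3 in CT26, Tlr3 overlapped Sting1, Cgas and Dhx58 there, and in MC38 Mavs, Zbp1, Irf3, Ifih1 and Tlr3 formed a run of overlapping neighbours. In FPKM, Ddx58 was 5.11 times Sting1 in the CT26 control and 9.25 times in the CT26 knockdown, and 8.91 and 18.9 times in the MC38 libraries. Cgas was 0.638 and 0.936 times Sting1 in CT26 and 2.16 and 3.56 times in MC38. These ratios are given as values with no test, and a lower Sting1 by itself raises them.

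The partners of these sensors were described from lists drawn up with earlier results of these data known. Each list is set beside the 1.67% and 1.12% of all genes called higher and lower. In each of these lists 0 genes were called lower, and 0 were lower at an unadjusted p under 0.05. DESeq2 called 0 genes of them, apart from 1 transcript induced downstream. Of 20 RIG-I and MAVS partners, 17 passed the filter, 1 was called higher and 0 lower by edgeR. That gene was Irf7, the interferon-inducible relative of Irf3, with log2 fold changes of 0.31 and 0.38 (edgeR adjusted p = 0.0359), a call lost with total-count scaling, in DESeq2, with no filter, with the filter at 50 counts and without the cell line block. The list's medians were -0.02 in CT26, where the sign depended on the setting, and -0.04 in MC38. Among 20 other DNA sensors and cGAS-STING regulators, all tested, 1 was called higher and 0 lower. It was Ifi204, an interferon-inducible DNA sensor, at 0.44 and 0.25 (edgeR adjusted p = 0.0326), lost under the same 5 of the 7 alternatives. The medians of this list were 0.10 and 0.04. Ifi204 has close relatives in the genome that can share its reads, so its value is uncertain.

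Of 15 genes that edit, degrade or sense double-stranded RNA, 5 were called higher and 0 lower, with medians of 0.21 in CT26 and 0.09 in MC38. All 5 belong to the OAS family, whose active members make 2-5A, the activator of the RNA-cleaving RNase L. Oasl2 had log2 fold changes of 0.45 and 0.42 (edgeR adjusted p = 3.10e-04), Oas1g 0.34 and 0.65 (8.34e-04), Oas1b 0.62 and 0.34 (0.00358) and Oas2 0.37 and 0.45 (0.00366). Oasl1 was the fifth, at 0.14 and 0.46 (0.0478), and is named beyond the rule because the count is small. The Oas genes are near copies of each other, and how reads were shared among them is not given, so the values of single copies are uncertain. Where at least 50 counts were required 3 of the 15 genes were called, with total-count scaling or no filter 4, and without the cell line block 0.

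Genes of the other arms did not pass edgeR's test. At an unadjusted p under 0.05, 2 endosomal genes, 1 gene of eIF2alpha phosphorylation and 0 of the RIPK3 list were higher, of 4, 11 and 4 tested, beside 6.56% of all genes. Of 8 endosomal toll-like receptor genes 4 were tested, and 0 were called in either direction; Hsp90b1, their chaperone, had log2 fold changes of 0.44 and -0.02 and the adaptor Myd88 0.25 and 0.16. Tlr7, Tlr8 and Tlr9, endosomal receptors of RNA and DNA, had at most 3 fragments in every library. Unc93b1, which carries these receptors to endosomes, had 5 fragments in each CT26 library against 833 and 770 in the MC38 libraries. Of 11 genes around eIF2alpha phosphorylation, 0 were called, and the medians were 0.02 in CT26, where the sign depended on the setting, and 0.09 in MC38. Atf4, translated when eIF2alpha is phosphorylated, had log2 fold changes of 0.0004 and 0.01, and Ppp1r15a, a phosphatase subunit that reverses the step, 0.02 and 0.20. Of 5 genes of ZBP1 and RIPK3 cell death, 4 were tested and 0 called, among them Mlkl, the pore-forming effector, at 0.18 and 0.06, and Ripk1 at 0.09 and -0.18. Ripk3, the kinase that ZBP1 engages, was the gene not tested, with 1 and 0 fragments in the CT26 libraries and 212 and 185 in the MC38 libraries. Unc93b1, Ripk3 and the 3 receptors were named after their values were seen.

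Of 11 transcripts that the sensing pathways induce, 7 were tested, 4 were called higher and 0 lower by edgeR, with medians of 0.34 in CT26 and 0.74 in MC38. Ifit1, which binds RNA lacking a host cap, had 2291, 3143, 1417 and 2324 fragments, log2 fold changes of 0.58 and 0.74 (edgeR adjusted p = 2.54e-07). It was the gene of the list that DESeq2 called as well (adjusted p = 0.00344). Cxcl10, a chemokine for T cells, had 1367, 1588, 2778 and 7449 fragments, so most of its change was in MC38, with log2 fold changes of 0.34 and 1.45 (edgeR adjusted p = 8.40e-15, DESeq2 1.0). Ifit3 was at 0.44 and 1.09 (edgeR adjusted p = 5.12e-05), and Usp18, a brake on interferon receptor signalling, at 0.46 and 0.46 (2.39e-04). Ifnb1, the interferon that IRF3 turns on, had 20 and 24 fragments in the CT26 libraries and 0 in both MC38 libraries, and a count of 0 allows up to 3. Ifna4, Ifnl2 and Ifnl3 had 0 fragments in every library. Of the tested genes not called, Ifit2 was at 0.05 and 0.05, Isg15 at 0.06 and 0.33 and Ccl5 at -0.01 and 0.99 (edgeR adjusted p of 0.948, 0.379 and 0.335). The interferon genes and the genes not called were named after their values were seen.

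**Figure D4:**
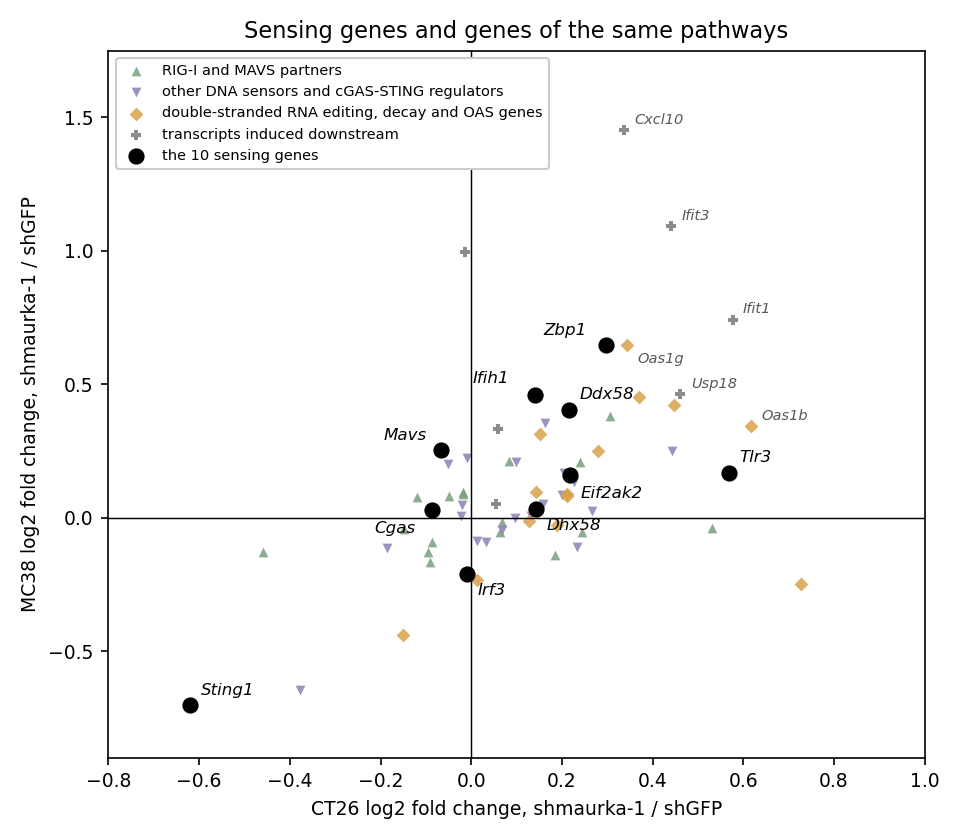
Log2 fold change in MC38 against that in CT26 (shmaurka-1 over shGFP, 1 library for each group) for the 10 sensing genes (black) and 4 lists of partner genes; axes cross at no change. Zbp1, Ddx58, Ifih1, Dhx58, Tlr3 and Eif2ak2 lie in the quadrant of genes higher in both lines, as do 28% of all genes tested. Ifit1 (0.58 and 0.74), Ifit3, Oas1g and Oas1b lie there too. Sting1 lies alone among the 10 at the lower left corner (-0.62 and -0.70).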

How the data were processed

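The files, as deposited, give 51905 genes in 4 libraries, each with an estimated count and its FPKM. The submitters' processing notes name Trimmomatic 0.36, HISAT2, Cuffdiff and Cufflinks 2.2.1; the aligner's annotation, the strand setting and the handling of reads that fit several genes are not given in the sources used here. The notes list GRCm39, but where a gene did not share its locus (20033 genes) 99.8% overlapped the same-named RefSeq gene on GRCm38, so coordinates are GRCm38. The deposited estimated counts were scaled between libraries in fixed steps. Dividing by each library's step gave whole fragments for 97.1% to 97.7% of nonzero values (within 0.05), which set the depth of 22207768 to 23752269 fragments and the counting intervals (exact conditional binomial). Deposited FPKM served for levels between genes and as an alternative.

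Counts were rounded and fitted in edgeR 4.0.16 (R 4.3.3; TMM, quasi-likelihood, line as block, Benjamini-Hochberg over 11928 genes, threshold 0.05). The fit estimated infinite prior degrees of freedom, so each gene's spread is the one fitted over all genes. DESeq2 1.42.0, limma 3.58.1, other scalings, added counts and filters were alternatives. The count model was tested on simulated data. The members and lists were chosen with earlier results of these data known. Named genes were Aurka, the 10 members, for each list the called genes (at most 4 by smallest p) or otherwise the 2 with most counts, and 3 cell type markers; further names are said to be so. The thresholds of 1.5-fold and 0.6-fold are those of the study. Nothing says whether the libraries came from separate cultures beyond their line and hairpin.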

Additional observations from a re-analysis of the deposited data

Results flagged for a closer look

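Mavs was lower in the CT26 knockdown library, with an interval that includes no change (log2 -0.07, -0.16 to 0.03), and higher in the MC38 one (0.25, 0.17 to 0.34). The MC38 change minus the CT26 change was 0.32 on the log2 scale (95% counting interval 0.19 to 0.45). Cgas also had opposite signs, but its interval in each line included no change, and its difference was 0.11 (-0.04 to 0.27). With 1 library for each group this contrast of the lines was not tested beyond counting error.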

How the results depend on the processing

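Of 241 values recomputed under an alternative, 204 stayed on the same side of the threshold, within the counting interval or, for counts, within 1.5 times. Of 148 fold changes and medians, 3 changed sign: Irf3 in CT26 with FPKM (-0.01 to 0.12 with either pseudocount) and the MC38 median of the DNA genes without Zbp1. Of 120 fold changes of single genes, 114 stayed within their counting interval, and the 6 outside all came from the FPKM (Dhx58 in CT26, Eif2ak2 in both lines). The other scalings and added counts moved the values by less than the intervals reach to either side. In effect only the FPKM could fall outside. With FPKM and a pseudocount of 0.1 or 1, 1 gene of the 10 was above 1.5-fold in CT26 (Tlr3) and 0 in MC38. With Zbp1 among the RNA sensors, added after seeing the data, the DNA medians, of Cgas and Sting1 only, were -0.35 in CT26 and -0.34 in MC38. DESeq2 called 17 genes higher and 12 lower and 0 of the 10 in either direction (5 of the 10 and 497 of all genes at an unadjusted p under 0.05, against 6 and 1469 in edgeR). Without the cell line block edgeR called 0 genes in either direction, with 13 genes and 0 of the 10 at an unadjusted p under 0.05. Where at least 50 counts were required, 63 genes were called higher and 38 lower, and 0 of the 10 higher. Total-count scaling left 1 of the 10 called higher (157 of all genes) and moved the share of calls that were higher from 59.8% to 49.1%. Between the lines it put 3 of the 10 higher in MC38, where 5858 of all 11928 genes were. The cause of these changes was not tested. Each group has 1 library, so leaving out a replicate was not run. Over the alternatives the log2 fold change of Sting1 was -0.64 to -0.59 (CT26) and -0.72 to -0.59 (MC38), and that of Zbp1 0.27 to 0.38 and 0.55 to 0.65. Adjusted p over the 7 alternative tests ran from 3.67e-04 to 1.0 for Sting1, 0.00601 to 1.0 for Zbp1 and 0.0238 to 1.0 for Ddx58. Genes at or under 3 fragments (Tlr7, Tlr8, Tlr9) lie at the limit of this depth.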
